A study of Homo sapiens with 4 samples.

Results

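FLT3 and 9 genes around it on the long arm of chromosome 13, in band 13q12, were examined in RNA-seq of 4 human cell lines. The 10 genes were GTF3A, MTIF3, LNX2, POLR1D, PDX1, CDX2, FLT3, PAN3, FLT1 and POMP, chosen by symbol from a table of 23368 entries, and all 10 were found. They were picked because FLT3 was known to be high in the line SEM, so the SEM levels and the group differences below are descriptions with no test. The translocation t(4;11), which rearranges the MLL gene, is present in RS4;11 and SEM, called the translocation lines here, and absent from NALM6 and REH, the control lines. All 4 are established lines of precursor-B acute lymphoblastic leukemia, kept in RPMI with fetal bovine serum, and sequenced once each, so a group held 2 lines (n = 2). With 1 library per line, the spread within a group is the difference between 2 leukemias, and every other difference between these lines is included in it.

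FLT3 is a receptor tyrosine kinase of early blood progenitors. Its ligand, encoded by FLT3LG, makes the receptor pair up, and the active kinase signals through RAS and MAP kinases, PI3 kinase and STAT5. High FLT3 levels are known from leukemias with a rearranged MLL gene. The genes beside it have unrelated jobs: a subunit of an mRNA deadenylase (PAN3), a receptor for vascular endothelial growth factors (FLT1), homeobox factors of gut and pancreas (CDX2 and PDX1), and housekeeping genes of transcription, mitochondrial translation and proteasome assembly.

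Summed gene counts were 51872617 for RS4;11 and 33620574 for SEM, and 44849858 for NALM6 and 84212986 for REH. Levels are CPM, the counts of a gene per 1000000 counts of that sum. They are not scaled by gene length, so they compare lines for 1 gene and not genes with each other. The summed CPM of 8 precursor-B markers was 2134 in RS4;11 and 1211 in SEM, against 2440.3 in NALM6 and 2374 in REH, and each of the 8 was counted in every line. Summed CPM stayed at or below 34.5 for 5 myeloid markers, 4.67 for 5 T and NK cell markers and 4.16 for 5 stromal and epithelial markers. CD3D, CD3E, CD3G, ELANE, COL1A2 and DCN had 0 counts in all lines, and the highest of these sums came mostly from MPO in REH (34.2 CPM).

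FLT3 lies at chr13:28577411-28674729 (hg19), and the deposited locus that holds PAN3 and PAN3-AS1 begins 36.3 kb farther along the arm. FLT3 and PAN3 point away from each other. The 250 bases before the RefSeq start of each (GRCh38.p14) are given here with those of FLT1, because FLT3 and PAN3 were high in the same lines and FLT1, on the far side of PAN3, was low there. Capitals mark matches, on either strand, to any of 5 short strings. They are TATAAA for the TATA box, then TGACAG, which MEIS proteins bind, then TGTGGT, which RUNX proteins bind, the E-box form CAGGTG, and the core bound by ETS proteins, GAGGAA.
FLT3, minus strand, chr13:28100577-28100826: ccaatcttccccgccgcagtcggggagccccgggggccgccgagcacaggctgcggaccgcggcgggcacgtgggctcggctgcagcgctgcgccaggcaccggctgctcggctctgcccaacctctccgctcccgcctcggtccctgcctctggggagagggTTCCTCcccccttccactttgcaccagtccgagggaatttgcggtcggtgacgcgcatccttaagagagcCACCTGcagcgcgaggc
PAN3, plus strand, chr13:28138295-28138544: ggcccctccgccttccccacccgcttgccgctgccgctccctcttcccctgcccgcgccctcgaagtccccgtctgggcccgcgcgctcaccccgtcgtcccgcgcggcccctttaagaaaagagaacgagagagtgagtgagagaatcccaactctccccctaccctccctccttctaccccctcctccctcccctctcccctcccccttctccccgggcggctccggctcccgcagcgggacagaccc
FLT1, minus strand, chr13:28495129-28495378: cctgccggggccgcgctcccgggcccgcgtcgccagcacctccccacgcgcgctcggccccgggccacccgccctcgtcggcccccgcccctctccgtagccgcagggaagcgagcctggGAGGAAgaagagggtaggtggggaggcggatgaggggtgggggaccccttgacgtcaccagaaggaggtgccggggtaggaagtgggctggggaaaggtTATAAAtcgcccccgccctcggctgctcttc
All 3 stretches were rich in CG, with 26 CG dinucleotides before FLT3, 22 before PAN3 and 25 before FLT1, against a median of 11 over 35116 RefSeq promoters of that length. The FLT3 stretch held an ETS core 87 to 82 bases before the start and the E-box string 17 to 12 bases before it. FLT1 held a TATA box 31 to 26 bases before the start and an ETS core 130 to 125 bases before it. The PAN3 stretch held none of the 5 strings, and no match overlapped another. Over all promoters the share with a match was 10.7% for the TATA box, 13.03% for MEIS, 11.0% for RUNX, 17.5% for the E-box and 23.6% for the ETS core. These are matches of letters in a short window and show no binding.

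**Figure D1:**
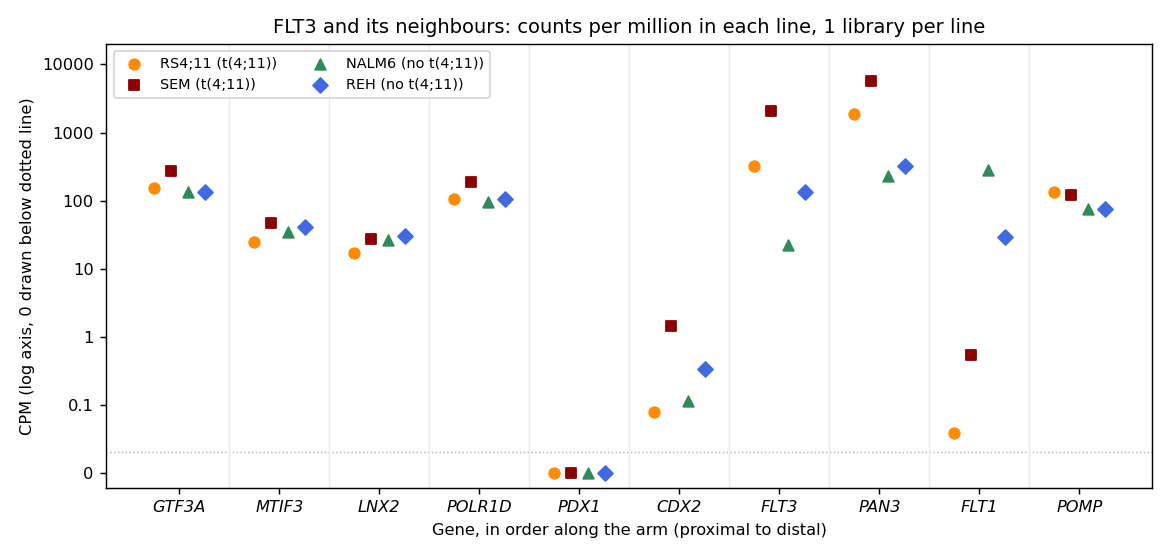
CPM (log axis) of the 10 genes in order along 13q12, 1 point per line, with the translocation lines drawn left of the control lines. SEM stands highest for FLT3 (2063 CPM) and PAN3 (5685 CPM), NALM6 for FLT1 (285 CPM), and PDX1 had 0 counts throughout.

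FLT3 was high in both translocation lines and highest in SEM. It had 318 CPM (RS4;11) and 2063 CPM (SEM), against 22.2 CPM (NALM6) and 133 CPM (REH). The groups did not overlap, and the order SEM, RS4;11, REH, NALM6 left wide gaps. SEM was 6.49-fold above RS4;11, RS4;11 was 2.40-fold above REH, and REH was 5.97-fold above NALM6. The step between the 2 control lines was thus larger than the step between the groups. Exact Poisson 95% intervals, which cover counting error only, were 313 to 323 CPM (RS4;11) and 2048 to 2079 CPM (SEM), against 20.8 to 23.6 CPM (NALM6) and 130.1 to 135.003 CPM (REH), so neighbours in this order were separated by more than counting error. The group means were 1191 ± 1234 CPM with the translocation and 77.4 ± 78.0 CPM without it (SD, n = 2 each), each SD as large as its mean. The log2 fold change was 4.03 (SE 1.46), and it was 2.17 with SEM left out and 5.84 with REH left out.

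PAN3 was likewise high in both translocation lines, highest in SEM, and less spread within its groups than FLT3. PAN3 is the regulatory subunit of the PAN2-PAN3 complex, which binds poly(A)-binding protein and trims poly(A) tails. It had 1865 CPM (RS4;11) and 5685 CPM (SEM), against 231 CPM (NALM6) and 326 CPM (REH). The order of the lines matched FLT3, and the groups did not overlap. PAN3 reads made up 0.186% of the RS4;11 library and 0.568% of the SEM library, against 0.0231% in NALM6 and 0.0326% in REH. Ranked by counts, which also depend on gene length, PAN3 was at rank 32 in RS4;11 and only 1 gene of 23368 had more counts in SEM, against rank 849 in NALM6 and 470 in REH. The group means were 3775 ± 2701 CPM with the translocation and 278 ± 67.0 CPM without it (SD, n = 2 each). The log2 fold change was 3.85 (SE 0.70), between 2.87 without SEM and 4.45 without RS4;11.

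FLT3 and PAN3 kept no fixed proportion to each other. The ratio of FLT3 to PAN3 counts was 0.171 in RS4;11 and 0.363 in SEM, against 0.0960 in NALM6 and 0.407 in REH. REH therefore had the highest share of FLT3, although both genes were low there next to SEM. In the authors' deposited Cuffdiff table, whose FPKM values are scaled by length and summarised per group, PAN3 had 684 FPKM with the translocation and 47.5 FPKM without it, and FLT3 had 321 and 19.6 FPKM. On that length-scaled level PAN3 stood above FLT3 in both groups. By that FPKM, PAN3 ranked 121 and FLT3 ranked 206 of 23165 genes in the translocation group, against ranks 1530 and 4327 in the group without it.

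PAN3-AS1, an antisense RNA gene in the same deposited locus, did not share this pattern. It had 15.6 CPM (RS4;11) and 51.6 CPM (SEM), against 17.6 CPM (NALM6) and 22.4 CPM (REH), so RS4;11 was the lowest line. PAN3 had 119 counts for each PAN3-AS1 count in RS4;11 and 110.2 in SEM, against 13.1 in NALM6 and 14.6 in REH. The library kit does not mark strand, so reads where the 2 genes overlap cannot be told apart. PAN2, the catalytic partner of PAN3 encoded on another chromosome, had 71.4 CPM (RS4;11) and 58.8 CPM (SEM), against 93.1 CPM (NALM6) and 144 CPM (REH). The ratio of PAN3 to PAN2 counts, not scaled by length, was thus 26.1 in RS4;11 and 96.7 in SEM, against 2.48 in NALM6 and 2.27 in REH. PABPC1, the poly(A)-binding protein, had 4251 CPM (RS4;11) and 2568 CPM (SEM), against 2145 CPM (NALM6) and 1950.2 CPM (REH). Which exons of PAN3 the reads came from was not analysed here.

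FLT1 ran the other way. It encodes VEGFR-1, a receptor for VEGFA, VEGFB and PGF. It had 2 counts in RS4;11 (0.0386 CPM) and 18 counts in SEM (0.535 CPM), against 12768 counts in NALM6 (285 CPM) and 2487 in REH (29.5 CPM). Both translocation lines were near 0 and both others were not, but NALM6 and REH also differed widely, with REH at 0.104 times NALM6. The Poisson 95% interval of the RS4;11 level was 0.00467 to 0.139 CPM, and that of SEM was 0.317 to 0.846 CPM. The log2 fold change was -9.07 (SE 2.12), and it was -6.62 without NALM6 and -11.79 without SEM. FLT1 thus had its highest level in the line where FLT3 and PAN3 were lowest, although REH, higher than NALM6 for FLT3, kept 29.5 CPM of FLT1.

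The 3 homeobox genes of the ParaHox cluster next to FLT3, GSX1, PDX1 and CDX2, were at or near 0 counts. PDX1, a pancreatic factor, and GSX1, a factor of the developing brain, had 0 counts in all 4 lines. A count of 0 allows up to 0.0578 CPM (RS4;11) and 0.0892 CPM (SEM), against 0.0669 CPM (NALM6) and 0.0356 CPM (REH), taking 3 counts as the limit. CDX2, a gut homeobox factor that lies 33.9 kb before FLT3, had 4 counts in RS4;11 and 48 in SEM, against 5 in NALM6 and 28 in REH. In CPM these were 0.0771 in RS4;11 and 1.43 in SEM, against 0.111 in NALM6 and 0.332 in REH. SEM was 4.29-fold above REH, but the 2 groups overlapped because RS4;11 was lowest, and the log2 fold change of 1.81 (SE 1.61) became -1.39 without SEM. PRHOXNB, 14.6 kb before FLT3 and the gene nearest to it, had 1 count in RS4;11 and 10 in SEM, against 0 in NALM6 and 2 in REH. ATP5EP2 had 2 counts, both in REH.

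The housekeeping genes at the proximal end were higher in SEM too, but by far less. GTF3A, the factor that starts 5S ribosomal RNA transcription, had 153 CPM (RS4;11) and 271 CPM (SEM), against 132 CPM (NALM6) and 136 CPM (REH). POLR1D, a subunit shared by RNA polymerases I and III, had 105 CPM (RS4;11) and 189 CPM (SEM), against 96.7 CPM (NALM6) and 106 CPM (REH). For both genes SEM stood alone, 1.78-fold above the next line, while the other 3 lines lay close together. GTF3A was just higher in RS4;11 than in either control line, by 1.13-fold, and POLR1D was not. Their log2 fold changes were 0.76 (SE 0.32) and 0.63 (SE 0.33), and without SEM they were 0.32 and 0.18.

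MTIF3 and LNX2, next to these genes, were not set apart in SEM in this way. MTIF3, a mitochondrial translation initiation factor that shares a deposited locus with GTF3A, had 24.9 CPM (RS4;11) and 46.6 CPM (SEM), against 34.4 CPM (NALM6) and 40.6 CPM (REH). LNX2, a ubiquitin ligase that binds NUMB, had 16.9 CPM (RS4;11) and 26.8 CPM (SEM), against 26.0 CPM (NALM6) and 30.3 CPM (REH). RS4;11 was the lowest line for both, and the groups overlapped. Their log2 fold changes of 0.03 (SE 0.39) and -0.27 (SE 0.34) were smaller than their errors, and their signs changed when single lines were left out.

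POMP, the chaperone that assembles the proteasome core, was higher in both translocation lines than in both control lines. Unlike GTF3A, FLT3 and PAN3, which were so too, it was not highest in SEM. It had 133 CPM (RS4;11) and 121 CPM (SEM), against 75.7 CPM (NALM6) and 76.1 CPM (REH). RS4;11 was the higher of the pair, and the lines within each group were close. The group means were 127 ± 8.51 CPM with the translocation and 75.9 ± 0.289 CPM without it (SD, n = 2 each). The log2 fold change was 0.84 (SE 0.16), and leaving out each line in turn gave 0.77 to 0.94.

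**Figure D2:**
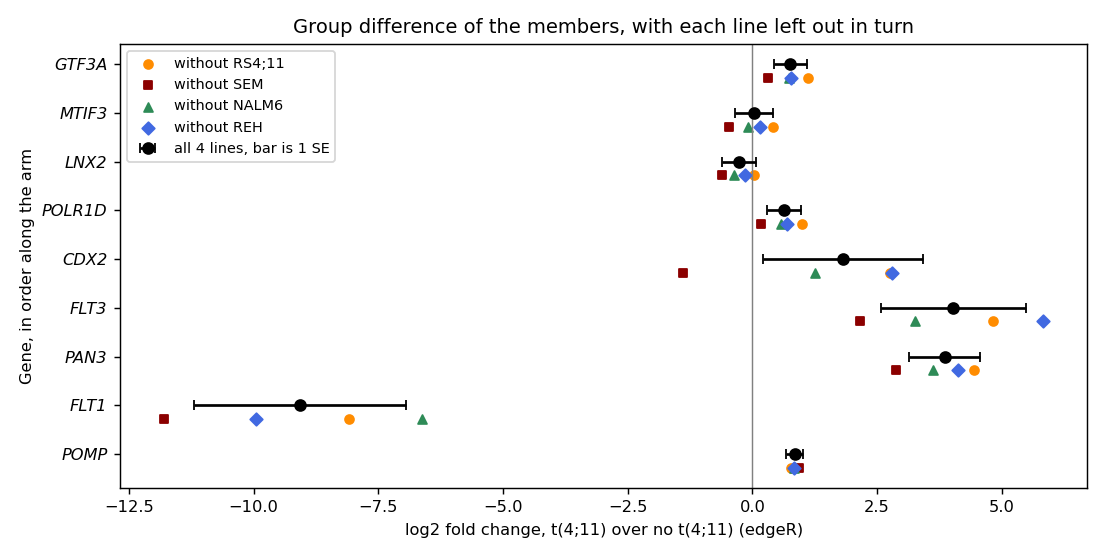
Log2 fold change, translocation over control lines, of the 9 genes tested, in order along 13q12. Black points are the fit to all 4 lines with bars of 1 SE, and coloured symbols are fits without the named line. POMP (0.84, SE 0.16) hardly moves, FLT3 (4.03, SE 1.46) ranges from 2.17 to 5.84, and MTIF3, LNX2 and CDX2 cross 0.

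Over the whole table, edgeR's quasi-likelihood test of the translocation lines against the control lines called 0 of 13844 genes higher or lower at an adjusted p under 0.05 (0%). All members but PDX1 passed its filter on low counts. It gave 1668 genes an unadjusted p under 0.05 (12.0%), while DESeq2 called 1349 genes and edgeR's exact test 441. The authors' deposited DESeq table called none of the members, with a background of 0.934% of its 18416 tested genes higher and 0.630% lower. The authors' deposited Cuffdiff table called FLT3 and PAN3 higher with the translocation, each with a q of 0.00418, where 1.22% of 14164 genes were called higher and 1.12% lower. The translocation lines both lay above the control lines for GTF3A, FLT3, PAN3 and POMP, and below them for FLT1. Of 13844 tested genes, 19.0% lay above in this way and 28.3% below. Because the members were chosen with these values known, nothing is read from those counts.

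How far the SEM excess reached along the arm was described by the log2 ratio of SEM to the median of the other 3 lines. The 12685 genes with a mean of at least 1 CPM over the 4 lines were used, and their median ratio was -0.04. The members PDX1 (0 counts) and CDX2 (mean 0.487 CPM) fell under that mean and were left out. CDX2 had a ratio of 3.68 and was 4.29-fold above the highest other line, on 48 counts in SEM. FLT3 stood at 3.96 and PAN3 at 4.13. Around them the ratio was 1.00 for GTF3A, 0.85 for POLR1D, 0.67 for POMP, 0.44 for MTIF3 and 0.04 for LNX2, and -5.79 for FLT1, while the non-members PAN3-AS1 and MTUS2 had 1.55 and 3.38. By fold over the highest other line, FLT3 (6.49) and PAN3 (3.05) were past 2-fold, as were 3.71% of the 12685 genes, and GTF3A and POLR1D (both 1.78) fell just short. Besides PAN3, the genes used within 1 Mb of FLT3 that were past 2-fold were MTUS2 (2.80) and PAN3-AS1 (2.31). A larger fold was found for 211 genes in the case of FLT3 and 323 genes in the case of PAN3. NALM6 was likewise at least 2-fold above the highest other line for 3.55% of genes, FLT1 among them, and REH for 7.49% and RS4;11 for 1.80%, with no member in either.

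Genes beyond the members varied more. On the proximal side, the deubiquitinase gene USP12 lies 831 kb from FLT3 and had 68.2 CPM (RS4;11) and 131 CPM (SEM), against 50.3 CPM (NALM6) and 67.6 CPM (REH), a log2 ratio of 0.96 for SEM. The next expressed gene out, WASF3, an actin regulator, had 1 count in RS4;11 and 834 in SEM, against 0 in NALM6 and REH, so it has no ratio. Farther out, CDK8, the kinase of the Mediator complex, had a ratio of -0.87, and RNF6, a ubiquitin ligase, -0.74. On the distal side SLC46A3, a lysosomal transporter, had a ratio of 0.83, with NALM6 (10.7 CPM) level with SEM (10.8 CPM). MTUS2, a microtubule-associated protein gene 924 kb from FLT3, had 2.43 CPM (RS4;11) and 6.81 CPM (SEM), against 0.0446 CPM (NALM6) and 0.653 CPM (REH). Its ratio of 3.38 was close to that of FLT3, and its order of lines was the same. The amino acid transporter gene SLC7A1 had 0.51, and UBL3, a ubiquitin-like protein gene, -0.79.

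Summed up by distance, 10 of the 11 expressed genes within 1 Mb of FLT3, FLT3 itself not counted, had a positive ratio for SEM, with a median of 0.85. Between 1 and 2 Mb only 4 genes had a ratio, with a median of -0.76 and 1 positive. Between 2 and 5 Mb the median was -0.38 over 20 genes, 7 of them positive. The highest of the 20 was FRY, 3931 kb from FLT3, at 4.87, above FLT3 and PAN3. It had 0.906 CPM (RS4;11) and 26.4 CPM (SEM), against 0 CPM (NALM6) and 1.16 CPM (REH). Beyond 5 Mb the median was -0.90 over 172 genes, 28 of them positive, against 5817 of 12380 genes positive in the whole table. The 172 genes include the far part of the arm, where SEM was low in general. The same measure for RS4;11 gave a median of -0.02 within 1 Mb and 0.14 beyond 5 Mb. Most expressed genes within 1 Mb of FLT3 were thus modestly higher in SEM than the median of the other lines, on an arm where most genes were lower in SEM, and FLT3, PAN3 and MTUS2 stood above the rest of them. DNA copy number was not analysed here.

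**Figure D3:**
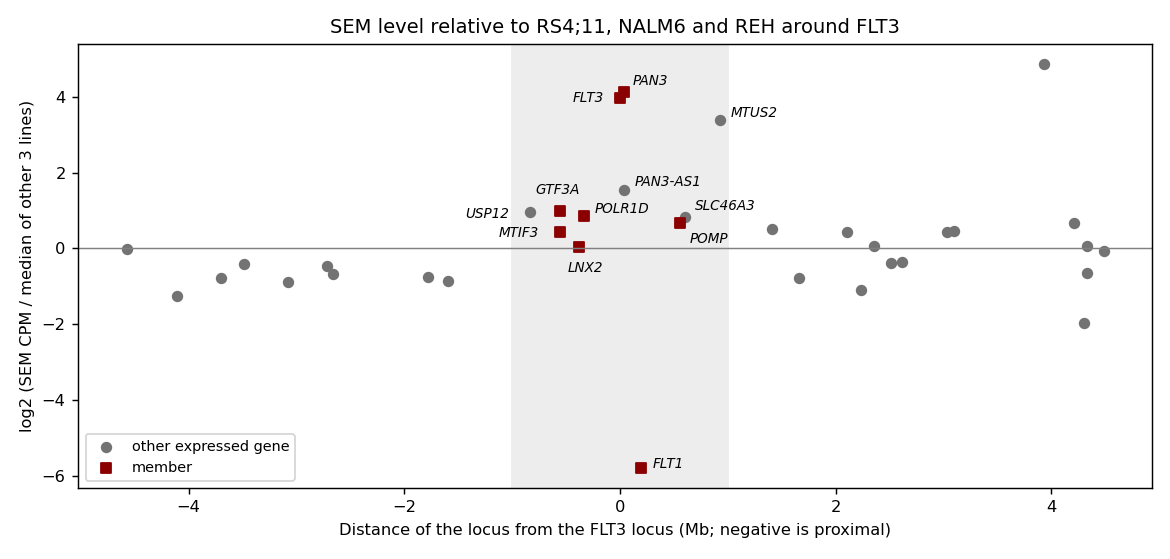
Log2 ratio of SEM CPM to the median of RS4;11, NALM6 and REH for expressed genes on chromosome 13, by distance in Mb from the FLT3 locus (squares are members, circles other genes, grey band within 1 Mb). FLT3 (3.96), PAN3 (4.13) and MTUS2 (3.38) stand above neighbours such as GTF3A (1.00) and POMP (0.67), and FLT1 lies at -5.79. The genes drawn, up to 5 Mb away, lie at or below 0 on the proximal side of the band. WASF3 and SHISA2, on that side, have no ratio and are not drawn. WASF3 had 834 counts in SEM, against 1 in RS4;11 and 0 in NALM6 and REH. The highest gene drawn is FRY (4.87), 3931 kb away on the distal side. The members CDX2 and PDX1, under a mean of 1 CPM, are not drawn.

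The genes most like FLT3 over the 4 lines were found by Euclidean distance between centred log2(CPM + 1) profiles among 13843 other tested genes. The nearest was LGALS1, the galectin-1 gene, at a distance of 0.481, with 19.7 CPM (RS4;11) and 172 CPM (SEM), against 0.780 CPM (NALM6) and 12.8 CPM (REH). SEMA3A (1.17), ADCY6 (1.22), CSF1R (1.22) and FAM81A (1.31) followed, all on other chromosomes. PAN3, the neighbour in the genome, was at rank 15 with a distance of 1.66. With 4 lines and 1 library each, such a ranking describes these lines.

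The ligand of FLT3 had its lower levels in the translocation lines, and the genes that signal below the receptor were split between both directions. FLT3LG had 1.93 CPM (RS4;11) and 2.26 CPM (SEM), against 4.28 CPM (NALM6) and 6.85 CPM (REH), a log2 fold change of -1.31 (SE 0.59). Of 28 genes of FLT3 signalling, all tested, 11 had a positive and 17 a negative log2 fold change, with a median of -0.21, against 6763 positive, 7081 negative and a median of -0.02 over all 13844 genes. By edgeR 0 were called higher and 0 lower, and the authors' deposited DESeq table called 1 lower, SOCS2. Of all tested genes, 0.630% of 18416 were called lower in that table and 1.12% of 14164 in the authors' deposited Cuffdiff table. SOCS2, a feedback inhibitor of cytokine receptors, had 8.69 CPM (RS4;11) and 0.357 CPM (SEM), against 149 CPM (NALM6) and 112 CPM (REH). DUSP6, a phosphatase that MAP kinase signalling induces, had 3.82 CPM (RS4;11) and 35.04 CPM (SEM), against 36.7 CPM (NALM6) and 262 CPM (REH), and was the 1 gene of the list called lower in the authors' deposited Cuffdiff table (q = 0.0134). SLA, an adaptor that dampens receptor signalling, went the other way, with 61.7 CPM (RS4;11) and 22.0 CPM (SEM), against 4.04 CPM (NALM6) and 0.689 CPM (REH). No gene of the list was 2-fold higher in SEM than in every other line, a mark passed by 3.71% of the 12685 expressed genes. With a share so low, nothing is read from that count.

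Among 8 transcription factors reported to act on FLT3, in human or mouse cells, 6 had a positive and 2 a negative log2 fold change. Over all 13844 tested genes 6763 were positive and 7081 negative. CEBPA, a myeloid factor, had 9.41 CPM (RS4;11) and 159 CPM (SEM) and 0 counts in NALM6 and REH, and it was the one factor of the list highest in SEM by over 2-fold. RUNX1 had 586 CPM (RS4;11) and 794 CPM (SEM), against 194 CPM (NALM6) and 285 CPM (REH). The homeobox factor HOXA9 had 12.0 CPM (RS4;11) and 13.6 CPM (SEM), against 0 counts (NALM6) and 1.47 CPM (REH). Its partner MEIS1 had 147 CPM (RS4;11) and 131 CPM (SEM), against 0.111 CPM (NALM6) and 0.119 CPM (REH). MEIS1 and HOXA9 thus separated the groups without following the difference between RS4;11 and SEM. The authors' deposited DESeq table called MEIS1, HOXA9 and RUNX1 higher, and CEBPA and RUNX1 were called in their deposited Cuffdiff table. By edgeR's quasi-likelihood test 0 of the 8 were called.

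For FLT1, the ligand VEGFA had 13.2 CPM (RS4;11) and 11.5 CPM (SEM), against 46.5 CPM (NALM6) and 60.8 CPM (REH), and it was the 1 gene of the 7 VEGF ligands and receptors called lower in the authors' deposited DESeq table (adjusted p = 0.0334). Its log2 fold change was -2.02 (SE 0.28). VEGFA and FLT1 were therefore both lower in the translocation lines. VEGFB, another ligand, had 38.8 CPM (RS4;11) and 48.2 CPM (SEM), against 38.4 CPM (NALM6) and 35.2 CPM (REH). KDR, the main signalling receptor for VEGFA, had 24 counts in RS4;11 and 25 in SEM and 0 in NALM6 and REH. FLT4, the third VEGF receptor, had 2.56 CPM (RS4;11) and 0.0297 CPM (SEM), against 2.30 CPM (NALM6) and 17.1 CPM (REH). NRP2, a co-receptor, had 0.964 CPM (RS4;11) and 0.208 CPM (SEM), against 1.54 CPM (NALM6) and 4.18 CPM (REH). Over the list 4 log2 fold changes were positive and 3 negative, and edgeR called 0. In the authors' deposited DESeq table, 0.630% of 18416 tested genes were called lower.

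The other receptors of the FLT3 class differed from line to line. CSF1R, the receptor for macrophage colony-stimulating factor, had 10.02 CPM (RS4;11) and 33.3 CPM (SEM), against 0.0892 CPM (NALM6) and 5.27 CPM (REH). PDGFRB had 41.7 CPM (RS4;11) and 99.97 CPM (SEM), against 7.00 CPM (NALM6) and 42.7 CPM (REH). Both were highest in SEM by over 2-fold, as were FLT3 and 3.71% of the 12685 expressed genes. PDGFRA was a gene of NALM6 (482 CPM), with at most 11 counts in any other line, and KIT was counted in REH alone (529 counts).

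Partners of the housekeeping members, encoded elsewhere in the genome, were split between both directions. Of 35 such genes, all tested, 21 had a positive and 14 a negative log2 fold change, with a median of 0.19, and 0 were called by edgeR or in either deposited table. None was 2-fold higher in SEM than in every other line, where 3.71% of the 12685 expressed genes were, and nothing is read from that count. PSMG3, a proteasome assembly chaperone like POMP, had 9.70 CPM (RS4;11) and 10.4 CPM (SEM), against 29.9 CPM (NALM6) and 32.8 CPM (REH), a log2 fold change of -1.54 (SE 0.29). PSMB9, an immunoproteasome subunit, had 42.5 CPM (RS4;11) and 31.4 CPM (SEM), against 81.2 CPM (NALM6) and 75.8 CPM (REH). These 2 proteasome genes were lower in each translocation line than in each control line, and so were PSMB8 and PSMG4. PSMB6, PSMB7 and PSMG2 were higher in each translocation line than in each control line. Over all 13844 tested genes 28.3% lay below in this way and 19.0% above. Of the 10 proteasome genes on the list, 5 had a positive log2 fold change, as POMP did, and 5 a negative one. LNX1, the paralog of LNX2, had 3.08 CPM (RS4;11) and 3.06 CPM (SEM), against 10.4 CPM (NALM6) and 2.46 CPM (REH).

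**Figure D4:**
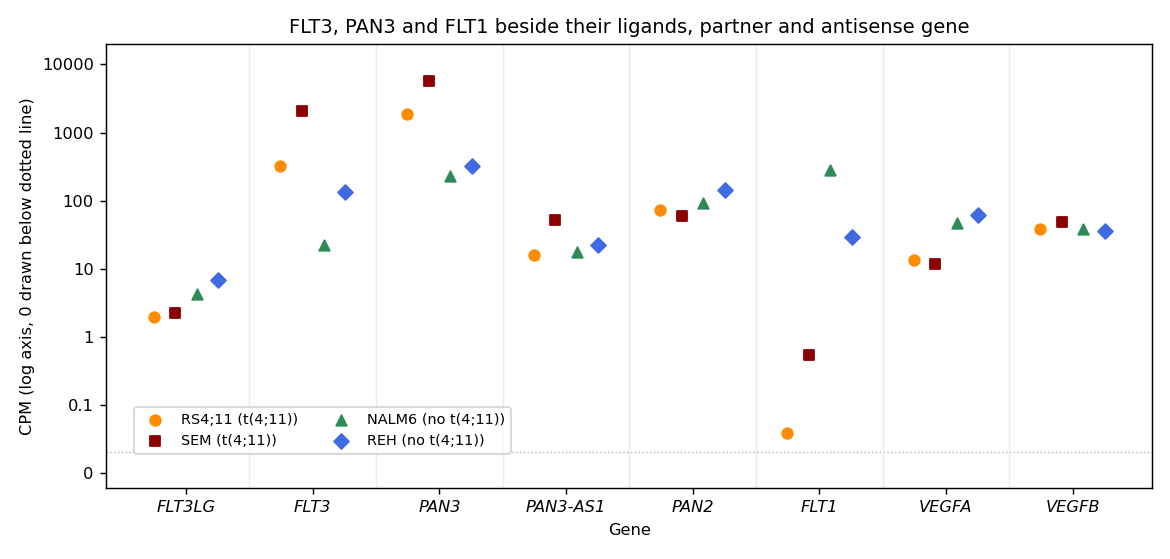
CPM (log axis) of FLT3, PAN3 and FLT1 beside FLT3LG, PAN3-AS1, PAN2, VEGFA and VEGFB, 1 point per line, with the translocation lines left of the control lines. FLT3 and PAN3 are highest in the translocation lines, while FLT3LG (1.93 and 2.26 CPM), PAN2 (71.4 and 58.8 CPM), VEGFA (13.2 and 11.5 CPM) and FLT1 are lower there than in NALM6 and REH.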

How the data were processed

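RNA was isolated with TRI Reagent and sequenced as TruSeq mRNA libraries, per the labels' protocols. The build named is hg19, and the tools listed are TopHat2 2.0.4, CASAVA 1.8.2, HTSeq, DESeq and Cuffdiff, per the submitters' processing notes, without settings or gene annotation. One deposited table gives, per its headers, raw HTSeq counts for each gene in each line. Beside them stand the authors' DESeq normalized counts (a signal, in which each line's counts are divided by that line's size factor), a fold change given as the ratio of control to t(4;11), and p-values. The other deposited table gives the authors' Cuffdiff FPKM per group, a log2 fold change, p-values and q-values. Both deposited fold changes run control over t(4;11), and the text turns the direction round. Joining by symbol left 23165 genes, after 28 symbols turned into dates and repeated symbols were dropped. A gene also needed a match in the Cuffdiff table, and without one it had no position or FPKM. Cuffdiff loci gave positions, with starts counted from 1, and can span several genes.

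CPM used column sums. The fit across genes was edgeR 4.0.16 (R 4.3.3): TMM, filterByExpr, glmQLFit and glmQLFTest, two-sided, Benjamini-Hochberg at 0.05, 2 residual degrees of freedom. SE is the log2 fold change divided by the square root of F. The code of the fit was checked on simulated data with less spread between samples than these lines have, so that check does not measure its power here. The labels name no batch and no replicate numbers. DESeq2 1.42.0, edgeR's exact test, other scalings and filters, and leaving out each line were alternatives. Promoters came from RefSeq (9 of 10 members matched, PDX1 not) and were searched on both strands. The members and lists were chosen with earlier results of these data known. Named genes are the members, all genes between them, the 3 nearest expressed genes at each end, up to 4 genes per list by size of log2 fold change plus ligands and partners, and the 5 nearest profiles, and 1 gene so named is not reported here. RNF6, UBL3, FRY, SHISA2, PABPC1, PAN2, VEGFB, PSMB6, PSMB7, PSMB8, PSMB9, PSMG2, PSMG4 and the class of receptors related to FLT3 beyond these were added after their values were seen. So were the precursor-B markers named singly. Figures used matplotlib 3.10.9 in Python 3.11.15.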

Additional observations from a re-analysis of the deposited data

How the results depend on the processing

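With each line left out in turn, the quasi-likelihood test called 0 genes each time. A group with 1 line left was assumed to vary like the other. Without the filter on low counts it called 5 genes, DESeq2 called 1349 and edgeR's exact test 441. FLT3 kept its direction, with a log2 fold change of 2.17 to 5.84 over the fits without 1 line, and so did PAN3, with 2.87 to 4.45. DESeq2 called both (4.04 and 3.86), as well as FLT1 (-9.02) and POMP (0.84), and the exact test called PAN3 (3.85) and FLT1 (-9.01). MTIF3 ranged from -0.46 to 0.41 without 1 line, -0.08 being the value without NALM6, and was -0.069 with library size alone as the scaling. LNX2 ranged from -0.61 to 0.024 and CDX2 from -1.39 to 2.80. The log2 ratio of SEM to the other lines was 4.04 for FLT3 and 4.21 for PAN3 by TMM, 4.05 and 4.22 by RLE size factors, and 4.06 and 4.22 by the authors' deposited normalized counts. Against the highest other line, which was RS4;11 for both genes, it was 2.70 and 1.61. The share of genes at least 2-fold above every other line in SEM was 2.32% at a mean of at least 5 CPM, and 2.06% passed 4-fold. Between 1 and 2 Mb from FLT3 the median ratio was -0.49 against RS4;11 alone, over a bin too thin to carry weight. That median is over 6 genes and the main one, -0.76, over 4. SHISA2 and WASF3 have a ratio only against RS4;11, and that of WASF3 rests on 1 count there. The cause of the other shifts was not tested. Of 149 alternative values in all, 103 kept their direction and side of the threshold or moved by less than counting error. No paired analysis was possible because the labels number no replicates and the lines of the 2 groups share no source. Counts limit precision for CDX2, PRHOXNB and for FLT1 in the t(4;11) lines.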
